A study of Arabidopsis thaliana with 12 samples.

Results

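The transcripts of 2 nuclear genes for mitochondrial proteins were followed in Arabidopsis thaliana in high light and in normal light. AT4G02580 encodes the 24 kDa subunit of respiratory complex I, and AT4G32060 encodes MICU, a regulator of the mitochondrial calcium uniporter. Each was found by its locus in the platform's probe annotation and has 1 probe that names no other gene, so 2 of the 692 single-gene probes, and of the 3439 probes on the array, are described. They were picked because their signals differ in opposite directions between the light conditions, so their own changes are described without a test.

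Complex I oxidises NADH in the mitochondrial matrix, passes the electrons to ubiquinone and pumps protons across the inner membrane. The 24 kDa subunit sits in the NADH-oxidising arm and carries an iron-sulfur cluster. The uniporter lets calcium ions enter the matrix, and MICU is an EF-hand protein that binds calcium and, in Arabidopsis, restrains this uptake. In leaves in the light, mitochondria oxidise glycine from photorespiration and NADH derived from reductant that chloroplasts export.

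The high light plants were wild type of ecotype Columbia 0 placed in light of 1000 µE for 1 h (6 samples). The plants they were set against were wild type of the same ecotype kept at 80 µE and labelled 0 h (normal light, 6 samples). The labels name no tissue, age, transgene or batch. They do not say whether samples of one condition are separate plants, so the spread behind the p-values is that of these samples and could be technical. A control held at 80 µE for the same hour is not among the samples, and light and elapsed time cannot be told apart. In these bulk extracts, fewer cells of a type and less RNA per cell cannot be told apart either.

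Deposited values are array intensities in arbitrary units, from 0 to 100. Their medians per sample were 0.338 to 0.357 in high light and 0.115 to 0.130 in normal light, and 167 to 209 probes per sample in high light and 396 to 470 in normal light stood at 0. Each value is therefore given as deposited and by its percentile among all probes of its array, and changes are given on the log2 scale after quantile normalisation, which gives every array the same distribution. The median probe changed by 0.16 on that scale and by 1.47 as deposited. Neither mitochondrial probe stood at 0 in any sample.

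The signal of the complex I subunit AT4G02580 was lower in high light. Its deposited intensities in high light samples 1 to 6 were 0.0753, 0.110, 0.0909, 0.130, 0.195 and 0.122, against 0.226, 0.364, 0.254, 0.431, 0.294 and 0.324 in normal light samples 1 to 6. The groups did not overlap, as for 48.0% of all probes as deposited, but high light sample 5 came close to normal light sample 1. The mean was 0.121 ± 0.0417 in high light and 0.316 ± 0.0749 in normal light (SD, n = 6 each), so that the mean in normal light was 2.61 times that in high light.

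Within its array, the same probe lay in the lower part of the distribution in high light and in the upper part in normal light. It stood at the 11.6th to 31.5th percentile in high light, with a median of 17.8, and at the 68.9th to 79.2nd percentile in normal light, with a median of 71.7. After quantile normalisation the change was -2.96 on the log2 scale, which puts the normal light level at 7.76 times the high light level. As deposited the change was -1.42. Columns brought to a common median gave -2.91, and cyclic loess gave -2.81. The direction was thus the same on each of the 4 scales, while the size on the deposited scale was smaller.

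MICU went the other way, with a higher signal in every high light sample. The deposited intensities of AT4G32060 in high light samples 1 to 6 were 2.09, 3.46, 2.70, 2.80, 4.74 and 4.75, against 0.362, 0.347, 0.213, 0.337, 0.848 and 0.895 in normal light samples 1 to 6. The lowest high light sample lay well above the highest normal light sample. The mean was 3.42 ± 1.11 in high light and 0.500 ± 0.293 in normal light (SD, n = 6 each), a ratio of 6.84 of high light over normal light.

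By rank, MICU was among the brightest probes of the array in high light and lower, but still in the upper range, in normal light. It stood at the 93.3rd to 97.0th percentile in high light, with a median of 95.5, and at the 64.3rd to 88.1st percentile in normal light, with a median of 77.9. The log2 change was 2.20 after quantile normalisation, or 4.60 times the normal light level. Cyclic loess gave 2.36, the deposited values 2.91 and a common median 1.42, all of them higher in high light.

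**Figure D1:**
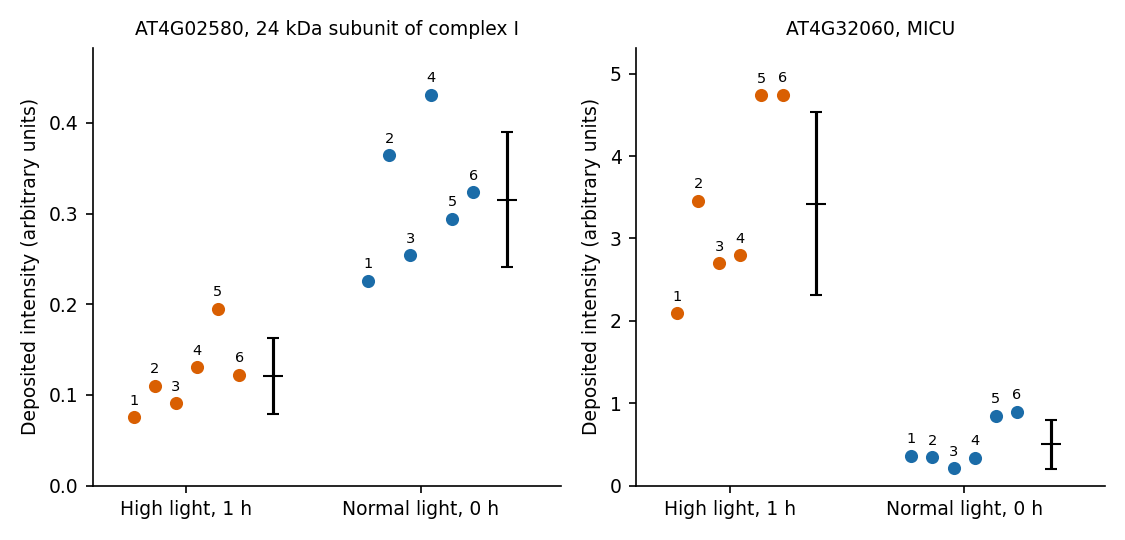
Deposited intensity (linear axes from 0, arbitrary units) of the 24 kDa subunit (left panel) and MICU (right panel) in 6 high light and 6 normal light samples, each point labelled with its sample number. Horizontal marks with bars are the mean and SD. The groups do not overlap for either gene, as for 48.0% of all probes. Samples 5 and 6 are the highest for MICU in both groups.

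**Figure D2:**
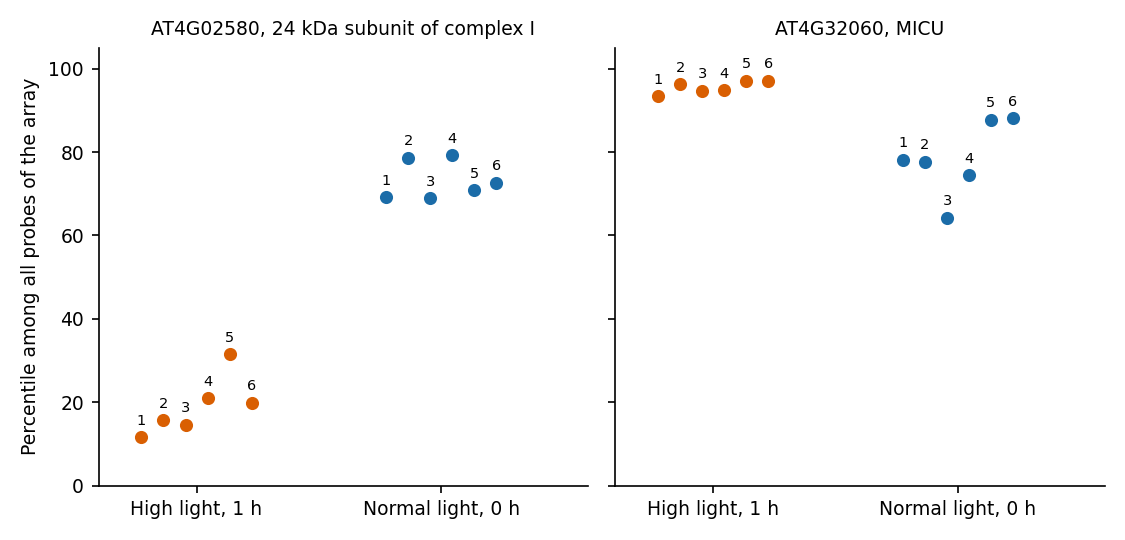
Percentile of each gene's deposited intensity among all 3439 probes of the same array, by sample, for high light and normal light. The 24 kDa subunit lies at the 11.6th to 31.5th percentile in high light and at the 68.9th to 79.2nd in normal light, while MICU lies at the 93.3rd to 97.0th in high light and at the 64.3rd to 88.1st in normal light.

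Samples within a group differed for both genes. For AT4G02580 the highest value was 2.59 times the lowest in high light and 1.91 times in normal light. For MICU these ratios were 2.27 in high light and 4.19 in normal light, and samples 5 and 6 were the highest of both groups. The pooled SD within groups on the normalised log2 scale was 0.522 for AT4G02580 and 0.560 for MICU, against a median of 0.397 over the 2233 probes above 0 in all 12 samples.

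As deposited, samples 5 and 6 were the highest in both groups for 137 of those 2233 probes, or 6.14%. Across all probes, which are not independent replicates, normalised log2 values correlated at a mean r of 0.713 for samples 1 and 2, 3 and 4, and 5 and 6 (0.571 to 0.882). The remaining sample pairs of one condition averaged 0.613 (0.450 to 0.771). If neighbouring numbers share a source, 3 independent units stand behind each n of 6 and the SEs and p-values given are too small. The labels do not settle this. Averaged over such pairs, MICU had 2.78 in high light samples 1 and 2 against 0.355 in normal light samples 1 and 2. Samples 3 and 4 gave 2.75 in high light and 0.275 in normal light, and samples 5 and 6 gave 4.74 in high light and 0.871 in normal light. As the MICU groups did not overlap, a higher mean in high light was fixed in advance for each of the 3 pairs. The ratio was smallest in samples 5 and 6.

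The same pairs gave lower AT4G02580 in high light throughout, which was likewise fixed by groups that did not overlap. Samples 1 and 2 averaged 0.0928 in high light and 0.295 in normal light. Samples 3 and 4 averaged 0.111 in high light and 0.343 in normal light, and samples 5 and 6 averaged 0.159 in high light and 0.309 in normal light. Without samples 5 and 6 the normalised changes were -3.23 for AT4G02580 and 2.29 for MICU.

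Because both probes were read on the same array, the ratio of their signals is free of any factor that multiplies a whole array. The level of this ratio has no meaning of its own, as probes respond differently, but its difference between groups gives the unequal change of the genes. The log2 of MICU over the 24 kDa subunit was 4.80, 4.97, 4.89, 4.42, 4.60 and 5.28 in high light samples 1 to 6, against 0.68, -0.069, -0.25, -0.36, 1.53 and 1.47 in normal light samples 1 to 6. The high light samples lay close together and the normal light samples spread more widely, with samples 5 and 6 at their top.

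The mean log2 ratio was 4.83 ± 0.297 in high light and 0.499 ± 0.853 in normal light (SD, n = 6 each). The difference was 4.33 with a standard error of 0.369, which corresponds to 20.1-fold on the deposited scale. After quantile normalisation the changes of -2.96 and 2.20 lay further apart than the -1.42 and 2.91 as deposited. The ratio is not free of an added background or of scaling that depends on intensity. Leaving out any 1 sample gave 4.16 to 4.53. The genes were chosen for opposite directions, so this value is a description of the size only.

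**Figure D3:**
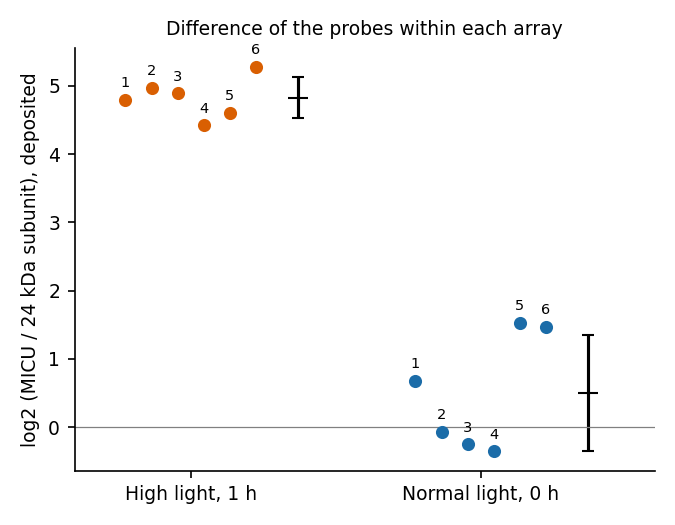
log2 of the MICU intensity over the 24 kDa subunit intensity on each array (deposited values), for 6 high light and 6 normal light samples with their numbers. Marks with bars are the mean and SD, and the high light samples lie between 4.42 and 5.28, above all normal light samples.

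Across the 2233 probes above 0 in all samples, the normalised change of AT4G02580 was the 9th lowest and that of MICU the 31st highest. As deposited, and by construction equally with one median for all columns, they were the 19th lowest and the 146th highest. After cyclic loess they were the 8th lowest and the 47th highest. The complex I subunit thus stayed within the lowest 19 of these 2233 probes on these 4 scales, whereas the place of MICU moved more with the scaling. Both genes were chosen for their directions, so these ranks are a description. Probes listed at 0 in any sample were left out of this ranking, and many of them had larger normalised changes in either direction. The size of those changes depends on the value put in place of 0.

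**Figure D4:**
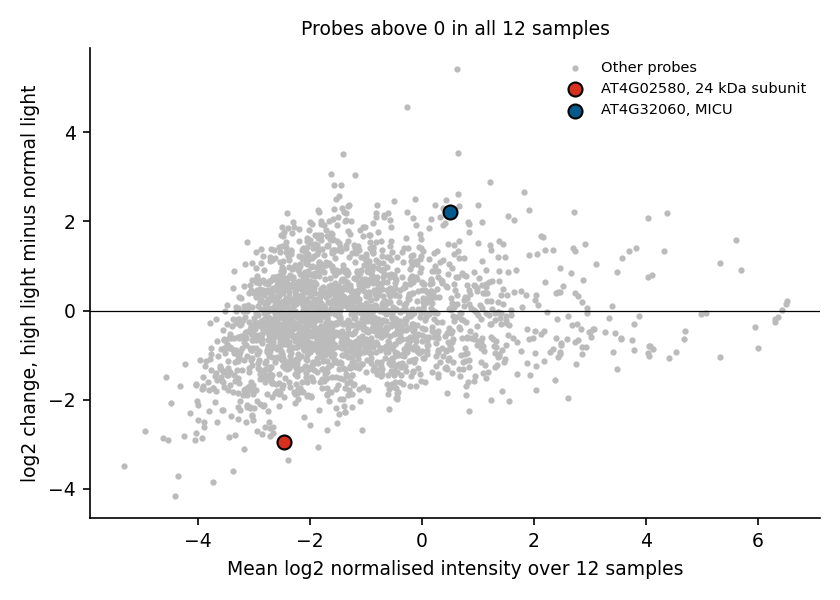
log2 change (high light minus normal light, quantile-normalised) against the mean log2 normalised intensity over the 12 samples, for the 2233 probes above 0 in all samples. The 24 kDa subunit (red) lies near the lower edge at -2.96 and MICU (blue) near the upper edge at 2.20.

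Other genes of both pathways were looked up in 13 lists of 245 loci covering the respiratory complexes, calcium transport, the TCA cycle, photorespiration, mitochondrial carriers and the related NDH complex of plastids. Single-gene probes measured 7 of the 245, of which 5 were not the genes already described. A further 8 probes hold a listed locus together with another gene and were not used. No single-gene probe measured a listed uniporter channel gene, alternative oxidase or gene of complexes II to IV, so MICU is here without its channel.

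Of the 5 other genes, 1 fell, 0 rose and 4 did not pass the test (limma, adjusted p under 0.05 over all 3439 probes). Over all probes 37.8% were called, 22.0% lower and 15.8% higher in high light, so 1 of 5 was not above the share of the array. Their median log2 change was -0.43, against 0.16 for all probes. At an offset before the logarithm, a filter on dim probes, a floor of 0.05 or a common median, 2 or 3 of the 5 were called.

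The gene that fell was GLDH (AT3G47930), the enzyme of the last step of ascorbate synthesis, which is also needed to assemble complex I. Its deposited intensities in high light samples 1 to 6 were 0.395, 0.365, 0.351, 0.395, 0.359 and 0.499, against 0.647, 0.707, 0.593, 0.529, 0.654 and 0.706 in normal light samples 1 to 6. The groups did not overlap, as for 48.0% of all probes as deposited, and high light sample 6 was the nearest to normal light. The mean was 0.394 ± 0.0547 in high light and 0.639 ± 0.0687 in normal light (SD, n = 6 each). After quantile normalisation GLDH fell by 1.71 on the log2 scale (SE 0.114, limma adjusted p = 1.49e-06). Its change as deposited was -0.70.

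The second measured subunit of complex I did not pass the test. AT5G47890, known as the B8 accessory subunit, had 0.244, 0.319, 0.243, 0.136, 0.197 and 0.0696 in high light samples 1 to 6 and 0.0982, 0.0910, 0.109, 0.0476, 0.109 and 0 in normal light samples 1 to 6. The groups overlapped, and normal light sample 6 was listed at 0. The normalised log2 change of 1.74 (SE 2.32, limma adjusted p = 0.56) rests on that sample, since without it the change was -0.63 (limma adjusted p = 0.25). Of the 2 measured complex I subunits, AT4G02580 was chosen for its lower signal in high light, and AT5G47890 had no settled direction.

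AT5G47030, the delta subunit in the central stalk of the mitochondrial ATP synthase, had 0.0772, 0, 0.0663, 0.119, 0.141 and 0.111 in high light samples 1 to 6. In normal light samples 1 to 6 it had 0.131, 0.127, 0.180, 0.0880, 0.108 and 0.177. These groups overlapped as deposited, and high light sample 2 was listed at 0. The normalised log2 change was -4.24 (SE 2.04, limma adjusted p = 0.13). Without high light sample 2 it was -2.22 (limma adjusted p = 4.0e-04), and with values under 0.05 raised to 0.05 it was -1.996 (limma adjusted p = 8.1e-06). An offset before the logarithm gave -2.61 (limma adjusted p = 0.0035), so the call depended on how 1 value of 0 was treated. Over all alternatives its adjusted p ran between 8.1e-06 and 0.30.

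Plastids hold a complex related to complex I, the NDH complex, which takes electrons from ferredoxin. NdhS (AT4G23890), its ferredoxin-binding subunit, averaged 5.95 ± 0.737 in high light and 4.57 ± 1.10 in normal light as deposited (SD, n = 6 each), and the groups overlapped. Its normalised log2 change was 0.42 (SE 0.164, limma adjusted p = 0.068), but -1.08 with a common median (limma adjusted p = 2.1e-04). After quantile normalisation NdhS passed without high light sample 2 (limma adjusted p = 0.028) or normal light sample 6 (limma adjusted p = 0.048). It also passed, with all 12 samples, without the dimmest 25% of probes (limma adjusted p = 0.046) or with the floor of 0.05 (limma adjusted p = 0.047). Over the alternatives its adjusted p ran between 2.1e-04 and 0.20, and the direction followed the scaling.

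NdhN (AT5G58260), another subunit of that complex, averaged 0.301 ± 0.0865 in high light and 0.169 ± 0.105 in normal light, with overlapping groups (SD, n = 6 each). Its normalised log2 change was -0.43 (SE 0.458, limma adjusted p = 0.47), and as deposited it was 1.14. NdhN passed the test under none of its 21 alternatives.

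A pair of calcium sensors was added after the probe names had been read, since no listed calcium gene besides MICU had a probe of its own. CML30 (AT2G15680), a calmodulin-like protein reported in mitochondria, had 2.46, 2.51, 2.95, 2.79, 3.76 and 3.76 in high light samples 1 to 6, against 0.538, 0.535, 0.673, 0.778, 0.823 and 0.798 in normal light samples 1 to 6. Each high light sample exceeded each normal light sample. As for MICU, samples 5 and 6 were the highest in both groups. This held for 6.14% of the 2233 probes above 0 in all samples. The mean was 3.04 ± 0.588 in high light and 0.691 ± 0.130 in normal light (SD, n = 6 each). CML30 rose by 1.55 on the normalised log2 scale (SE 0.141, limma adjusted p = 1.22e-05). Its change was 2.14 as deposited and 0.65 with a common median, and its call held on both.

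CML41 (AT3G50770), a calmodulin-like protein of plasmodesmata, averaged 0.486 ± 0.0514 in high light and 0.0959 ± 0.0494 in normal light as deposited (SD, n = 6 each). Its lowest high light value, 0.392, lay above its highest normal light value, 0.188. After quantile normalisation the groups overlapped, and CML41 rose by 0.90 (SE 0.227, limma adjusted p = 0.0086). As deposited its change was 2.47. Both sensors passed the test, as did 37.8% of all probes, 15.8% being higher in high light. The sensors are 2 genes chosen by name, with earlier results of these data known, and their p-values do not allow for that choice. The groups did not overlap for 48.0% of all probes as deposited and for 30.7% after quantile normalisation.

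**Figure D5:**
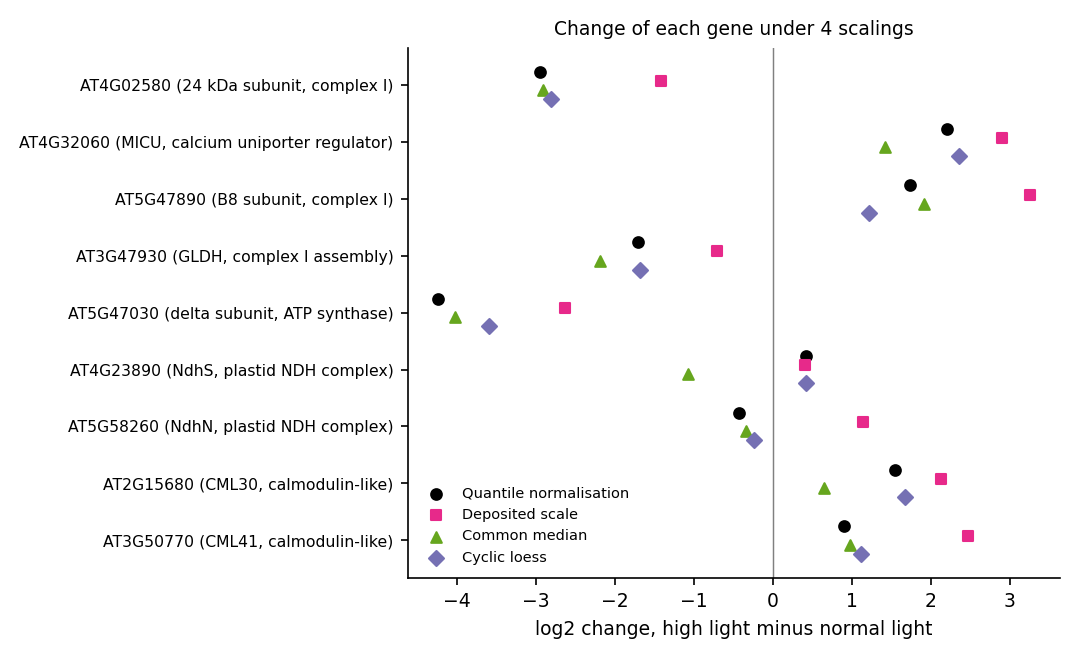
log2 change, high light minus normal light, of the 9 genes under quantile normalisation (circles), as deposited (squares), scaled to one median (triangles) and after cyclic loess (diamonds). The 24 kDa subunit and GLDH lie below 0 and MICU, CML30 and CML41 above 0 on all 4 scales, whereas NdhS and NdhN change side. AT5G47030 also lies below 0 and AT5G47890 above 0 on all 4 scales, but each has 1 sample listed at 0.

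The 422 single-gene probes above 0 in all 12 samples were ranked by their correlation with each gene over the normalised log2 values of the 12 samples. These values share 2 light conditions and 1 array per sample, so the correlations describe likeness only. Nearest to AT4G02580 were AT5G56070 (r = 0.967), AT1G24240 (r = 0.964) and AT1G03810 (r = 0.964). Their correlations in deviations from the group means were 0.729, 0.728 and 0.592. AT1G03810 was the brightest, with deposited means of 1.32 ± 0.332 in high light and 2.91 ± 0.423 in normal light (SD, n = 6 each). The others differed less as deposited. AT5G56070 had 0.239 ± 0.0569 in high light and 0.271 ± 0.0568 in normal light. AT1G24240 had 0.186 ± 0.0564 in high light and 0.258 ± 0.0440 in normal light. Their log2 changes after quantile normalisation were -1.57 for AT5G56070 and -1.98 for AT1G24240.

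Nearest to MICU were AT2G27290 (r = 0.970), AT5G46560 (r = 0.955) and AT4G18180 (r = 0.950). Their correlations with MICU in deviations from the group means were 0.822, 0.706 and 0.675, the highest of these 3 being that of AT2G27290. AT5G46560 had deposited means of 2.13 ± 0.191 in high light and 0.316 ± 0.136 in normal light (SD, n = 6 each). AT4G18180 had 2.48 ± 0.399 in high light and 0.249 ± 0.127 in normal light.

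Between the complex I subunit and MICU the correlation was -0.808 over the 12 samples. In deviations from the group means it was 0.428, over the same 12 samples. The negative value over the 12 samples follows from the choice of genes with opposite directions. The value in deviations pools both groups, so it does not describe each condition on its own.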

How the data were processed

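The authors deposited linear intensities. Their scanning, background correction and scaling are not given in the sources used here. Probes were named from the platform annotation and, through gene identifiers, the RefSeq table of assembly TAIR10.1, which matched 690 of 692 single-gene probes. The sources name no genome build, so no coordinates are given. The RefSeq table lists 1 transcript for AT4G02580 and 2 for AT4G32060, which the probe does not separate.

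Arrays were quantile normalised, zeros took the table's lowest positive value (9.02e-06), and limma 3.58.1 (R 4.3.3) was run on log2 values (2-sided, Benjamini-Hochberg over 3439 probes, threshold 0.05), as tested on simulated data. Other alternatives were scalings, an offset of 0.0056, a filter on the dimmest 25% of probes, a replicate block, averaged pairs and each sample left out. All measured list genes are named, with the 3 probes most like each gene. The genes and lists were chosen with earlier results of these data known. The number of arrays limits the precision.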

Additional observations from a re-analysis of the deposited data

Results flagged for a closer look

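An isolated sample was found in 4 of the 32 sets of 6 values examined, and chance flags about 1 set in 20. None of these sets belonged to AT4G02580 or MICU. The value in parentheses is the distance from that sample to its neighbour, as a share of the range of normalised log2 values. AT5G47890 in normal light had sample 6 listed at 0, against normalised intensities of 0.111 to 0.205 in the others (0.939). AT5G47030 in high light had sample 2 listed at 0, against 0.0344 to 0.0904 in the others (0.895). The size of both gaps is set by the value put in place of 0. AT3G47930 (GLDH) in high light had 0.337 in sample 6, against 0.244 to 0.272 in the others (0.667). AT3G50770 (CML41) in high light had 0.266 in sample 2, against 0.332 to 0.376 in the others (0.636).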

How the results depend on the processing

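AT4G02580 was lower and MICU higher in high light under all 21 alternatives, at -3.23 to -1.42 and 1.42 to 2.91 on the log2 scale. Both moved on the deposited scale (-1.42 and 2.91) and MICU also with a common median (1.42). Leaving out 1 sample gave -3.19 to -2.83 for AT4G02580 and 2.005 to 2.36 for MICU. Both genes were chosen for these directions, and their groups did not overlap as deposited or after quantile normalisation. Leaving samples out could therefore hardly turn either direction, and these values describe only the size. The 1300 calls over all probes (543 higher, 757 lower) became 759 with samples 1 and 2, 3 and 4, and 5 and 6 averaged, and 1190 to 1321 with 1 sample left out. The deposited scale gave 1698 higher and 194 lower, a common median 391 and 911, and cyclic loess 546 and 633. Of the 5 other listed genes, 1 was called. This became 2 with a common median, an offset or without the dimmest probes, 3 with the floor of 0.05, and 1 to 3 with 1 sample left out. Direction turned for NdhN (AT5G58260) as deposited (1.14), for NdhS (AT4G23890) with a common median (-1.08), and for AT5G47890 without normal light sample 6 (-0.63, with 2.28 the highest value on leaving out 1 sample), with the floor (-0.27) and without samples 5 and 6 (-0.24). The cause was not tested beyond these values. GLDH, CML30 and CML41 kept direction and call in all 21. The floor, and the omission of samples 5 and 6, were alternatives chosen after seeing the data. AT5G47030 was among the dimmest probes, so that filter gives it no value. Between the light conditions, samples sharing a number showed little likeness in their departures from the group mean of normalised log2 values (r between -0.0063 and 0.065). On the deposited scale, samples 5 and 6 were nevertheless the highest in both groups for 137 of the 2233 probes above 0 in all samples, or 6.14%. Whether part of the probes shares an effect of the sample number was not tested. The fit with the numbers as a replicate block called 1195 probes, 1 of the 5 genes among them. By construction, the block and the averaged pairs leave the changes of AT4G02580 (-2.96) and MICU (2.20) as they are, so those 2 alternatives say nothing about their stability.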
